A study of Mus musculus with 6 samples.

Results

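Transcripts of the PPAR and LXR pathway, that is of the lipid-sensing nuclear receptors, their target genes and the genes of lipid use and export, were measured in M2c macrophages. The genes were chosen by symbol, as 41 listed genes of nuclear receptors, cholesterol export, cholesterol storage, droplet formation, triglyceride turnover and fatty acid oxidation. Of the 41 genes, 40 had a row among the 19309 genes of the count table, and 39 were among the 13785 genes with a mean of over 5 counts that were tested. *Ppara* was not analysed here, and *Pdk4*, a kinase that holds back the mitochondrial use of pyruvate, had 0, 3 and 3 counts in the sEH-/- and 1, 3 and 9 counts in the wild-type libraries and was too low to be tested.

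RNA was sequenced from bone marrow-derived macrophages of mice aged 8 to 10 weeks that lacked the soluble epoxide hydrolase (sEH-/-, 3 libraries) and of wild-type mice (3 libraries), with 1 library per mouse. In both groups the cells grew for 7 days with GM-CSF at 15 ng/mL and M-CSF at the same dose, were made M1 by IFN-γ at 1 ng/mL with LPS at 10 ng/mL, and then became M2c under TGF-β1 at 10 ng/mL. The design text of the series gives 24 h for the M1 step and 48 h for TGF-β1, whereas the methods give a shorter M1 step and either 24 h or 48 h for TGF-β1. The mice were strain-matched littermates, and the study turned to females for its later experiments, while the labels of these 6 libraries do not give the sex. The sEH-/- libraries 1, 2 and 3 held 5818444, 5013265 and 4400197 counts, and the wild-type libraries 1, 2 and 3 held 4632688, 6096440 and 5448287.

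PPARs and LXRs are nuclear receptors that bind DNA together with RXR and switch genes on when fatty acid derivatives or oxysterols bind to them. In macrophages, LXR targets move cholesterol out of the cell to lipoproteins, and PPAR targets take part in the binding, storage and oxidation of fatty acids. Substrates of the sEH are epoxy derivatives of polyunsaturated fatty acids, which it hydrolyses to diols.

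*Ephx2*, which encodes the sEH, served to check the genotype of each library. Counts were 26, 49 and 57 in wild-type and 4, 2 and 1 in sEH-/- libraries, so that no library went against its label. The log2 fold change, here and below sEH-/- over wild-type, was -4.05 (SE 0.43, edgeR adjusted p = 0.0042).

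The macrophage label was checked against 8 marker genes, all of which were tested, and *Csf1r* had the most counts. Their summed level was 1985, 2396 and 2457 CPM (a gene's share of the library total, which was scaled by edgeR's TMM factors) in the sEH-/- libraries and 2204, 1744 and 1834 CPM in the wild-type libraries. All 8 had a log2 fold change above 0, none was called by edgeR, DESeq2 or limma-voom, and 3 had an unadjusted p below 0.05, against 23.4% of all tested genes. *Cd14*, picked out after its values were seen, passed the adjusted p alone (log2 fold change 0.50, edgeR adjusted p = 0.029), with all sEH-/- above all wild-type libraries. It did not pass without sEH-/- library 2 (adjusted p = 0.085) or wild-type libraries 2 (0.15) or 3 (0.14), and it was called without wild-type library 1 (0.60, 0.0096) and with counts corrected for the ceiling of duplicate removal (0.68, 0.012), in a range of 0.00053 to 0.15. The part of these markers in the results was not tested. Markers of T, B and NK cells summed to between 16.4 and 35.9 CPM per library, nearly all from *Cd4*. Of these 10 genes only *Cd4* was tested, *Klrb1c* was below the minimum, and 8 were not analysed here. Adipocyte markers were of interest because several genes of lipid storage are high in fat cells. Of these 8 markers only *Lipe* and *Plin1* were tested (neither called by edgeR, DESeq2 or limma-voom, 1 at an unadjusted p below 0.05), *Retn* was below the minimum, and *Adipoq*, *Lep*, *Cfd*, *Cidec* and *Cidea* were not analysed here. Their summed level, mostly *Lipe*, was 63.1, 73 and 63.5 CPM in sEH-/- and 63.1, 57.6 and 63.3 CPM in wild-type libraries. *Plin1*, a droplet coat protein, had 2.22, 3.23 and 5.33 CPM in sEH-/- and 7.04, 4.54 and 7.17 CPM in wild-type libraries (log2 fold change -0.82, SE 0.35, edgeR adjusted p = 0.19), with overlap and a range of -1.18 to -0.55 when 1 library was left out. In bulk libraries, fewer cells of a type and less RNA per cell cannot be told apart.

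Across the pathway, 1 of 39 members was called higher and 1 was called lower in sEH-/- macrophages. Called means an edgeR adjusted p (Benjamini-Hochberg, over all tested genes) below 0.05 and a fold change of over 1.5 in either direction. Of all 13785 tested genes, 1.51% were called higher and 1.10% lower (2.61% together). The 2 called members are too few to set their share against these. The called members were *Dgat2*, an enzyme that makes triglycerides, and *Pparg*, which encodes the receptor PPARγ. *Cpt2*, an enzyme of fatty acid import into mitochondria, also passed the adjusted p but not the fold threshold, which makes 3 of 39 members against 4.01% of all tested genes. An unadjusted p below 0.05 was found for 7 of 39 members and for 23.4% of all tested genes.

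All 3 sEH-/- libraries were above all 3 wild-type libraries for 4 members (*Dgat2*, *Lipe*, *Acsl4* and *Cpt1a*), and 11.8% of all tested genes showed this. They were all below for 4 members (*Pparg*, *Fabp4*, *Cpt2* and *Etfdh*), against 14.5% of all tested genes. The median log2 fold change of the 39 members was 0.007, that of all tested genes was -0.00092, and 20 members were above and 19 below 0. The 95% interval lay within the 1.5-fold limits for 31 of 39 members and for 61.0% of all tested genes. The plot of fold changes by role gives each member's estimate and interval, with 36 open symbols that did not pass the adjusted p.

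**Figure D1:**
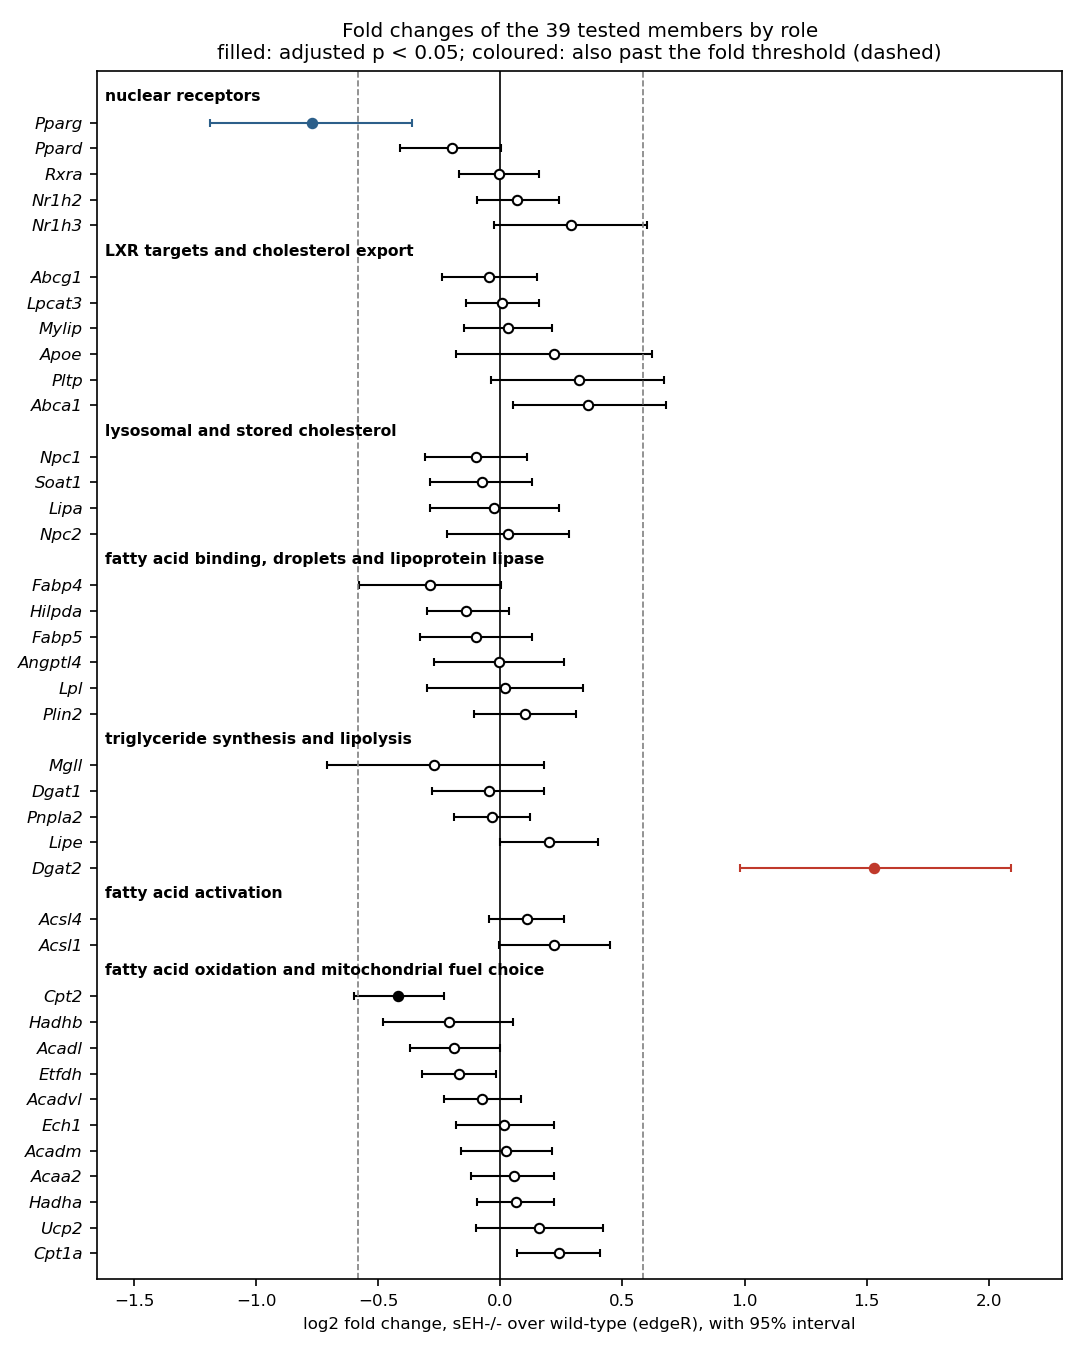
Log2 fold change of the 39 tested members (sEH-/- over wild-type, x axis) with 95% intervals, grouped by role on the y axis. Coloured points are called (*Dgat2* at 1.53 and *Pparg* at -0.77), the black filled point (*Cpt2* at -0.42) passed the adjusted p alone, and dashed lines mark the 1.5-fold limits.

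Levels of different members were compared in wild-type cells as CPM per kilobase of exon. *Hilpda*, a lipid droplet protein that inhibits lipolysis, was the highest at 125 ± 8.51 (SD, n = 3), and its lowest library (115) was above every library of the next gene. *Plin2*, which coats lipid droplets, followed at 80.1 ± 7.93, and from there to *Npc2*, the lysosomal cholesterol carrier, at 69.5 ± 5.59, the libraries of neighbouring genes overlapped. Among the receptors, *Rxra* (43.9 ± 1.36) and *Nr1h2* (43.6 ± 3.42) were level with each other and above *Nr1h3* (21.6 ± 1.51), *Ppard* (15.7 ± 1.81) and *Pparg* (10.8 ± 2.26). *Dgat2* was near the bottom of the order at 1.31 ± 0.0918, followed only by *Pdk4* at 0.22 ± 0.211.

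**Figure D2:**
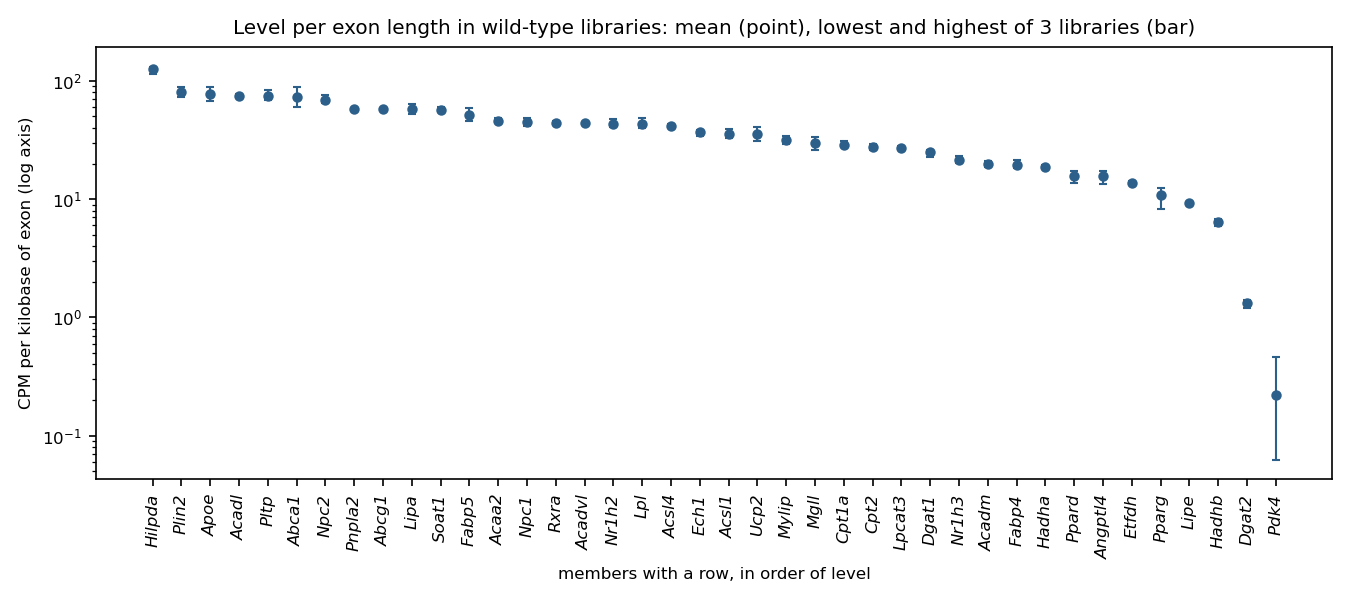
Level of the 40 members with a row in wild-type libraries, as CPM per kilobase of exon on a log axis, with the mean as a point and the lowest and highest of 3 libraries as a bar. *Hilpda* stands apart at the top, and *Dgat2* and *Pdk4* lie below all others.

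*Pparg* (ENSMUSG00000000440) lies on chromosome 6 of mm10, from 115360951 to 115490399 on the plus strand, and encodes the PPAR that drives lipid storage genes and is needed for alveolar macrophages and fat cells. It had 18, 15.9 and 23 CPM in the sEH-/- libraries and 24.4, 36.8 and 34.8 CPM in the wild-type libraries. Every sEH-/- library was below every wild-type library, with the narrowest gap between sEH-/- library 3 and wild-type library 1. The means were 19.0 ± 3.61 and 32.0 ± 6.66 CPM (SD, n = 3 each), from 79 to 105 and 111 to 227 counts per library. *Pparg* was called lower in sEH-/- cells, with a log2 fold change of -0.77 (SE 0.19, 95% interval -1.19 to -0.36, edgeR adjusted p = 0.048). The call stood close to its threshold and was lost without sEH-/- library 1 (-0.74, adjusted p = 0.065) or 2 (-0.65, 0.16), and without wild-type library 2 (-0.66, 0.22) or 3 (-0.71, 0.19). It was also lost with limma-voom (-0.79, adjusted p = 0.052), with a minimum of 10 counts in every library (-0.76, 0.051) and with the library total as a covariate (-0.73, 0.091), and the adjusted p over all alternatives ran from 0.014 to 0.22.

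Markers of dendritic cells differed between libraries in part as *Pparg* did. Of 8 listed, 3 were tested, all 3 with a log2 fold change below 0 (median -0.31), none was called by edgeR, DESeq2 or limma-voom, and 1 had an unadjusted p below 0.05. Their summed level was 27.5, 29.3 and 58.4 CPM in sEH-/- and 42.2, 59.4 and 47.7 CPM in wild-type libraries, with *Clec9a* having the most counts and *Cd209a* at 0. *Zbtb46*, a dendritic cell transcription factor picked out after its values were seen, had 5.3, 3.23 and 9.28 CPM in sEH-/- and 9.23, 14.6 and 10.6 CPM in wild-type libraries (log2 fold change -0.98, SE 0.34, edgeR adjusted p = 0.11). It was called without sEH-/- library 3 alone among the alternatives (-1.41, adjusted p = 0.036, range 0.036 to 0.42). For *Pparg*, the summed dendritic cell markers and *Zbtb46*, sEH-/- library 3 was the highest of its genotype and wild-type library 2 the highest of its own. Summed markers of T, B and NK cells, nearly all *Cd4*, were also highest of their genotypes in the same libraries (35.9 and 30.7 CPM). Summed stromal markers were highest in wild-type library 2 too (66.5 CPM), but among sEH-/- libraries they were lowest in library 3 (16 CPM). The part of all these markers in the *Pparg* result was not tested.

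The promoters of *Pparg* and *Cpt2* are shown because these 2 members passed the adjusted p and have entries in the RefSeq promoter table (GRCm38.p6). *Dgat2* has none there. Each line gives the bases before a start site that lie in no annotated exon, 5′ to 3′ on the strand of the gene.
*Pparg* start 1, chr6:115360894-115360950, plus strand: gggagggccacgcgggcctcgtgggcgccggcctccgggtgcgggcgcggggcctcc
*Pparg* start 2, chr6:115362099-115362291, plus strand: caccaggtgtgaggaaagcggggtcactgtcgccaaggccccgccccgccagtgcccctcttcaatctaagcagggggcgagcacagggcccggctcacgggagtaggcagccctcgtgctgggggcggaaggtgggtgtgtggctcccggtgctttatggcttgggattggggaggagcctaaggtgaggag
*Pparg* start 3, chr6:115421816-115422065, plus strand: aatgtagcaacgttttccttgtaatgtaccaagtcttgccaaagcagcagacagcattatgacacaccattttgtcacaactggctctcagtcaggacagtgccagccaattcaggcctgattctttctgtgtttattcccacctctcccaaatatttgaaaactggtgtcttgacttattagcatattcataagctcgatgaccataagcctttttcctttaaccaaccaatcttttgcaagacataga
*Cpt2*, chr4:107923611-107923839, minus strand: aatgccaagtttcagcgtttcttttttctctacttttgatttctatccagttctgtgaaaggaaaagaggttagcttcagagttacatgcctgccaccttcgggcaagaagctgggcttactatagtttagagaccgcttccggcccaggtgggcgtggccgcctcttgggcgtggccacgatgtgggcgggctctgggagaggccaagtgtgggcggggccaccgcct

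The element AGGTCA, the core of the sites that PPAR, LXR and RXR bind, was searched on both strands (AGGTCA or TGACCT) in the 250 bases before each start. It was found in 14.0% of all 32851 promoters, and in 7 of 42 promoters (16.7%) of the 32 members with an entry. The 7 belonged to 6 genes, *Acadm*, *Acadvl*, *Cpt1a*, *Plin2*, *Rxra* and starts 1 and 2 of *Pparg*. At these 2 starts the match lay in bases annotated as exon, which are left out of the lines shown, and so no letter there is in capitals. Exact copies of 2 elements in the same direction with 1 base between them were in 0.0335% of all promoters, those with 4 bases between them in 0.0152%, and neither was in a member's promoter. Counts per gene do not tell which start was used.

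*Ppard*, the most broadly expressed PPAR, had 104, 96.5 and 109 CPM in the sEH-/- libraries and 104, 131 and 119 CPM in the wild-type libraries. Wild-type library 1 was level with the sEH-/- libraries, and the groups overlapped. The log2 fold change was -0.20 (SE 0.092, edgeR adjusted p = 0.22), and it was -0.12 without wild-type library 2.

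*Nr1h3*, which encodes LXRα, had 53.2, 82.1 and 64.0 CPM in sEH-/- and 53.2, 51.3 and 58.6 CPM in wild-type libraries. Only sEH-/- libraries 2 and 3 exceeded the wild-type range, and the log2 fold change of 0.29 (SE 0.14, 95% interval -0.028 to 0.60) did not pass the test at an edgeR adjusted p of 0.26. It was 0.12 without sEH-/- library 2 and 0.43 without sEH-/- library 1. *Nr1h2*, which encodes the widely expressed LXRβ, had 148, 157 and 156 CPM in sEH-/- and 142, 138 and 159 CPM in wild-type libraries. The highest library was a wild-type one, and the groups overlapped (log2 fold change 0.069, SE 0.075, edgeR adjusted p = 0.63), with 0.026 without wild-type library 2 and 0.14 without wild-type library 3. *Rxra*, the shared partner, had 224, 255 and 239 CPM in sEH-/- and 248, 238 and 234 CPM in wild-type libraries. Its sEH-/- libraries reached both below and above the wild-type range. The log2 fold change was -0.0039, with a 95% interval of -0.17 to 0.16 that kept any change well under 1.5-fold (edgeR adjusted p = 0.98). Of the 5 tested receptors, *Pparg* alone was called.

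**Figure D3:**
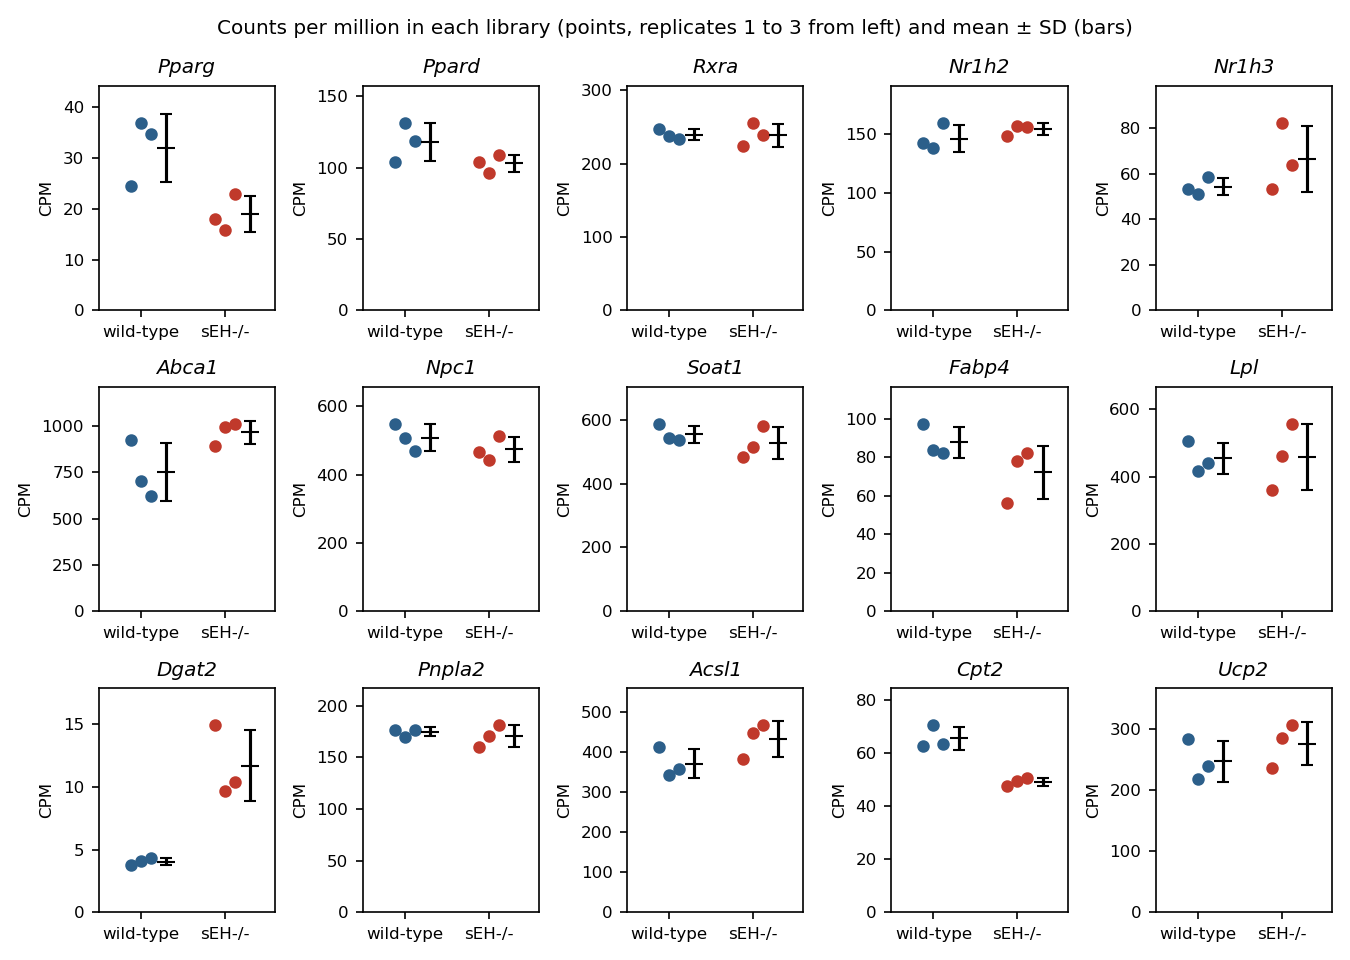
CPM in each library (points, wild-type in blue and sEH-/- in red, replicates 1 to 3 from left to right) and mean ± SD (bars) of 15 members, with every y axis starting at 0. The groups are apart for *Pparg*, *Fabp4*, *Dgat2* and *Cpt2* and overlap in the other 11 panels.

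The 6 LXR targets of cholesterol export gave no call with edgeR, DESeq2 or limma-voom, and 1 had an unadjusted p below 0.05. *Abca1*, the transporter that loads cholesterol onto apolipoprotein A-I, had the most counts of all members and the largest fold change of this role. It had 893, 993 and 1007 CPM in the sEH-/- libraries and 924, 704 and 622 CPM in the wild-type libraries. Wild-type library 1 lay above sEH-/- library 1, and the other wild-type libraries lay below all sEH-/- libraries. The means were 964 ± 62.4 and 750.2 ± 156 CPM (SD, n = 3 each), with a log2 fold change of 0.36 (SE 0.14, 95% interval 0.05 to 0.68, edgeR adjusted p = 0.15). The adjusted p fell below 0.05 with DESeq2 (0.37, adjusted p = 0.029) and without wild-type library 1 (0.54, 0.019), short of 1.5-fold in both. Without wild-type library 3 the log2 fold change was 0.24 (0.43), and the adjusted p ran from 0.019 to 0.47 over all alternatives.

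Of the other members of this role, *Pltp*, which transfers phospholipids between lipoproteins, had 171, 269.8 and 275 CPM in sEH-/- and 215, 178 and 181 CPM in wild-type libraries. *Apoe*, the apolipoprotein that macrophages secrete, had 131, 225 and 220 CPM in sEH-/- and 191, 146 and 157 CPM in wild-type libraries. In both genes sEH-/- library 1 was the lowest of all 6 libraries and sEH-/- libraries 2 and 3 were the highest, a pattern picked out after the values were seen. Without sEH-/- library 1 the log2 fold change went up from 0.32 to 0.51 for *Pltp* (adjusted p = 0.022, over all alternatives 0.022 to 0.59) and from 0.22 to 0.44 for *Apoe* (0.043, over all alternatives 0.043 to 0.86). It went down without sEH-/- library 2 or 3, to 0.23 and 0.21 for *Pltp* and to 0.11 and 0.12 for *Apoe*, and with the library total as a covariate to 0.19 for *Pltp* and 0.078 for *Apoe*. *Apoe* was at 0.34 without wild-type library 1 and at 0.14 without wild-type library 2. With all libraries the edgeR adjusted p was 0.27 and 0.51. *Abcg1*, which passes cholesterol to HDL, *Mylip*, a ubiquitin ligase, and *Lpcat3*, which puts polyunsaturated chains into phospholipids, lay between -0.047 and 0.03 on the log2 scale. Their 95% intervals were within the 1.5-fold limits.

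For the 4 genes of lysosomal and stored cholesterol, none was called by edgeR, DESeq2 or limma-voom, none had an unadjusted p below 0.05, and all 4 intervals were within the 1.5-fold limits. *Npc1*, which exports cholesterol from the lysosome, had the largest difference, with 466, 442 and 514 CPM in sEH-/- and 547, 508 and 469 CPM in wild-type libraries. The groups overlapped (log2 fold change -0.10, SE 0.094, edgeR adjusted p = 0.57), and the value ran from -0.16 to -0.035 when 1 library was left out. *Soat1*, which esterifies cholesterol for storage, had the most counts of the 4, with 482, 514 and 581 CPM in sEH-/- and 585, 541 and 537 CPM in wild-type libraries. Here sEH-/- library 3 reached the wild-type range and the other sEH-/- libraries lay below it (log2 fold change -0.076, SE 0.095, edgeR adjusted p = 0.68), with a range of -0.14 to -0.017 when 1 library was left out. *Lipa*, the acid lipase of the lysosome, and *Npc2* were at -0.025 and 0.031.

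Fatty acid binding, droplet and lipase genes also gave no call among 6 by any of the 3 tools, with none at an unadjusted p below 0.05. *Fabp4*, a fatty acid carrier and a known PPARγ target, had 56.3, 77.9 and 82.1 CPM in sEH-/- and 97.0, 83.9 and 82.3 CPM in wild-type libraries. All sEH-/- libraries were below all wild-type libraries, but sEH-/- library 3 and wild-type library 3 nearly met. Its log2 fold change was -0.29 (SE 0.13, 95% interval -0.58 to 0.003, edgeR adjusted p = 0.22), and it was -0.13 without sEH-/- library 1. *Lpl*, the lipase that releases fatty acids from lipoproteins, had 361, 462 and 555 CPM in sEH-/- and 505, 416 and 439.9 CPM in wild-type libraries. The sEH-/- libraries held both the lowest and the highest value, and the log2 fold change was 0.017 (SE 0.14, edgeR adjusted p = 0.96). The remaining members, *Hilpda* (-0.14), *Fabp5* (-0.10), *Angptl4*, an inhibitor of lipoprotein lipase (-0.0037), and *Plin2* (0.10), overlapped between the genotypes, and leaving out 1 library moved *Plin2* to between 0.033 and 0.17. With counts corrected for the ceiling that duplicate removal sets, *Hilpda* was at -0.30 and just passed the edgeR adjusted p (0.05 after rounding), short of 1.5-fold, and its adjusted p ran from 0.05 to 0.69 over all alternatives.

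Triglyceride turnover held the largest difference. *Dgat2* (ENSMUSG00000030747, chromosome 7, from 99153658 to 99182719 on the minus strand) encodes one of a pair of enzymes that add the last fatty acid to a triglyceride. Its level was 14.9, 9.69 and 10.4 CPM in sEH-/- and 3.74, 4.06 and 4.30 CPM in wild-type libraries, from 87, 48 and 45 counts against 17, 25 and 24. Each sEH-/- library had more than any wild-type library, and sEH-/- library 1 had the most. The means were 11.7 ± 2.81 and 4.03 ± 0.283 CPM (SD, n = 3 each). *Dgat2* was called higher, with a log2 fold change of 1.53 (SE 0.25, 95% interval 0.98 to 2.09, edgeR adjusted p = 0.018), or 2.89-fold. The call was lost without wild-type library 2 (1.53, adjusted p = 0.094) or 3 (1.58, adjusted p = 0.12), with the size of the difference kept, and over all alternatives the adjusted p ran from 0.00076 to 0.12.

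*Dgat1*, which encodes the other enzyme of the pair, had a level per kilobase of exon of 24.9 ± 1.70 in wild-type cells against the 1.31 of *Dgat2*. Its log2 fold change was -0.047 (SE 0.10, 95% interval -0.28 to 0.18, edgeR adjusted p = 0.83). *Pnpla2*, the first lipase of triglyceride breakdown and the gene with the most counts in this role, had 160.0, 171 and 181 CPM in sEH-/- and 177, 170.0 and 177 CPM in wild-type libraries. The sEH-/- values enclosed the wild-type ones (log2 fold change -0.036, SE 0.07, edgeR adjusted p = 0.81). *Lipe*, the hormone-sensitive lipase, was at 0.20 with an edgeR adjusted p of 0.22. *Mgll*, which splits the last ester bond, was at -0.27 with the widest interval of the uncalled members (-0.71 to 0.18), and its sEH-/- library 3 at 180.4 CPM stood apart from libraries 1 and 2 at 93.4 and 109 CPM. Its log2 fold change was -0.081 without sEH-/- library 1, -0.15 without library 2, -0.18 without wild-type library 2 and -0.58 without sEH-/- library 3 (edgeR adjusted p = 0.027), against an adjusted p of 0.46 with all libraries and of 0.027 to 0.81 over all alternatives. *Lipe* and *Mgll* were picked out after their values were seen.

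Both genes of fatty acid activation, which couple fatty acids to coenzyme A, were above 0. *Acsl1* had 382, 449 and 467 CPM in sEH-/- and 412, 343 and 359 CPM in wild-type libraries. Wild-type library 1 lay above sEH-/- library 1, so that the groups overlapped (log2 fold change 0.22, SE 0.10, edgeR adjusted p = 0.23). *Acsl4*, which prefers arachidonic acid, was at 0.11 (edgeR adjusted p = 0.39). Neither was called by DESeq2 or limma-voom, and none of the 2 had an unadjusted p below 0.05.

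Of 11 tested genes of fatty acid oxidation and mitochondrial fuel choice, none was called by edgeR, DESeq2 or limma-voom. An unadjusted p below 0.05 was found for 4 (*Cpt2*, *Cpt1a*, *Etfdh* and *Acadl*), against 23.4% of all tested genes, and 1 passed the adjusted p alone. This was *Cpt2* (ENSMUSG00000028607, chromosome 4, from 107903981 to 107923610 on the minus strand), the inner-membrane enzyme that returns acylcarnitine to acyl-CoA. It had 47.6, 49.4 and 50.5 CPM in the sEH-/- libraries and 62.7, 70.4 and 63.5 CPM in the wild-type libraries. The groups did not overlap, and the spread was small in sEH-/- libraries (SD 1.51 CPM) next to wild-type libraries (SD 4.27 CPM). *Cpt2* was lower by a log2 fold change of -0.42 (SE 0.084, 95% interval -0.60 to -0.23, edgeR adjusted p = 0.03), short of 1.5-fold. The adjusted p was not passed without sEH-/- library 2 (0.098) or wild-type libraries 2 (0.17) or 3 (0.13), or with the library total as a covariate (0.054), and it ran from 0.023 to 0.17 over all alternatives.

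*Cpt1a*, the outer-membrane enzyme that makes acylcarnitine and is taken as the control point of the pathway, had 254, 275 and 252 CPM in sEH-/- and 236, 213 and 214 CPM in wild-type libraries. Its sEH-/- libraries were all above the wild-type ones, opposite to *Cpt2*, with a log2 fold change of 0.24 (SE 0.076, 95% interval 0.07 to 0.41) that did not pass at an edgeR adjusted p of 0.095. *Cpt1a* was picked out after its values were seen. *Ucp2*, an inner-membrane carrier and the gene with the most counts in this role, had 237, 286 and 306 CPM in sEH-/- and 284, 218 and 239.8 CPM in wild-type libraries. The groups overlapped (log2 fold change 0.16, SE 0.12, edgeR adjusted p = 0.46), and leaving out 1 library moved the value to between 0.075 and 0.27. The enzymes of the β-oxidation cycle and its electron carrier (*Acadl*, *Acadm*, *Acadvl*, *Hadha*, *Hadhb*, *Acaa2*, *Ech1* and *Etfdh*) lay between -0.21 and 0.064 on the log2 scale. *Hadhb* was at -0.21 and *Hadha*, which encodes the other subunit of the same enzyme complex, at 0.064, and leaving out 1 library moved them to between -0.30 and -0.12 and to between 0.041 and 0.12.

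Differences between libraries of 1 genotype followed the library total in many members. The median member was at -0.13, 0.026 and 0.064 (log2 of CPM over the wild-type mean) in sEH-/- libraries 1, 2 and 3 and at 0.046, -0.055 and -0.016 in wild-type libraries 1, 2 and 3. The largest library of each genotype thus had the lowest median and the smallest library the highest. In sEH-/- cells, 21 of 39 members (53.8%) had their lowest CPM in the largest and their highest CPM in the smallest library, against 19.4% of all tested genes with a known exon length. In wild-type cells this held for 15 members (38.5%) against 21.7%. Among genes with over 0.2 counts per exonic base it was 14 of 19 members in sEH-/- and 9 of 19 in wild-type cells, against 53.5% and 61.6% of 1521 genes. The part of this pattern in the genotype differences was not tested apart from the fit with the library total as a covariate, in which *Dgat2* was at 1.61 (adjusted p = 0.025, from 0.00076 to 0.12 over all alternatives), *Pparg* and *Cpt2* did not pass the adjusted p (0.091 and 0.054), and 171 genes were called in place of 360.

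**Figure D4:**
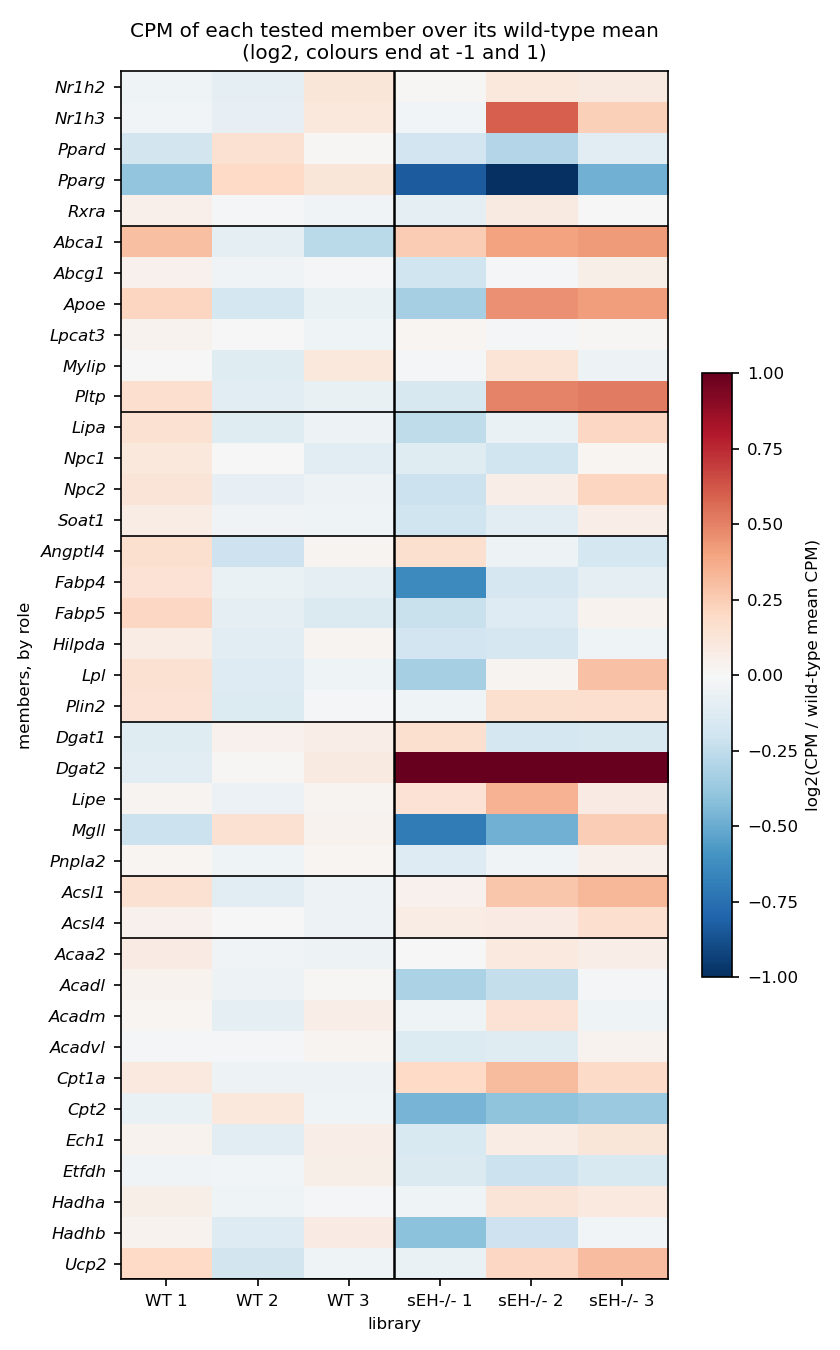
Log2 of each tested member's CPM over its wild-type mean (colour, ending at -1 and 1) in the 3 wild-type and 3 sEH-/- libraries (columns), with members in rows by role. *Dgat2* is high in all sEH-/- libraries, *Pparg* and *Cpt2* are low in all of them, and sEH-/- library 1 is low in *Apoe*, *Pltp*, *Fabp4* and *Lpl*.

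Other genes of the pathway, in 6 wider lists of 130 genes, were set beside the members. Of 106 tested, 2 were called higher and 2 lower, against 1.51% and 1.10% of all tested genes, with a median log2 fold change of -0.022. Among 15 other PPAR targets, *Vldlr*, a receptor for triglyceride-rich lipoproteins, had 30.8, 15.9 and 39.4 CPM in sEH-/- and 60.2, 82.6 and 66.3 CPM in wild-type libraries. All sEH-/- libraries were below, and it was called lower (log2 fold change -1.29, SE 0.24, edgeR adjusted p = 0.025). As in the summed dendritic cell markers, sEH-/- library 3 and wild-type library 2 were the highest of their genotypes, and the part of those markers was not tested. It was not called without wild-type library 2 (-1.15, adjusted p = 0.12) or 3 (-1.33, 0.12), or with the library total as a covariate (-1.26, 0.056), and the adjusted p ran from 0.0055 to 0.12 over all alternatives.

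*Olr1*, a receptor for oxidised LDL from the same list, had 167, 158 and 195 CPM in sEH-/- and 117, 119.6 and 108 CPM in wild-type libraries. The groups were apart, and it was called higher just past the fold threshold (log2 fold change 0.59, SE 0.087, edgeR adjusted p = 0.014). The call was lost without sEH-/- library 3 (0.51, adjusted p = 0.012) or wild-type libraries 2 (0.62, 0.057) or 3 (0.55, 0.11). It was also lost with library totals in place of TMM factors (0.57, adjusted p = 0.01) and with the library total as a covariate (0.57, 0.026), with a range of 1e-05 to 0.11 over all alternatives. *Tgm2*, the gene with the most counts in it, was at 0.12 (edgeR adjusted p = 0.62), and at 0.029 to 0.22 when 1 library was left out.

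Among 21 other droplet, triglyceride and lipolysis genes, *Lpin1*, which makes the diacylglycerol that DGAT enzymes use, was called lower. It had 49.6, 49.0 and 58.4 CPM in sEH-/- and 65.1, 97.7 and 79.9 CPM in wild-type libraries. The groups did not overlap, sEH-/- library 3 and wild-type library 2 were the highest of their genotypes, as in the summed dendritic cell markers, whose part was not tested, and the log2 fold change was -0.64 (SE 0.14, edgeR adjusted p = 0.036). The call was lost without sEH-/- library 1 (-0.60, adjusted p = 0.052) or 2 (-0.58, 0.13), or without wild-type library 2 (-0.48, 0.16) or 3 (-0.65, 0.14). The covariate ended it too (-0.59, adjusted p = 0.074), and the range over all alternatives was 0.0032 to 0.16. *Lpin2*, the gene with the most counts in this list, was at 0.088 (edgeR adjusted p = 0.53), and at 0.053 to 0.13 when 1 library was left out.

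Among 24 other cholesterol traffic genes, which also held *Vldlr*, *Cav1*, the coat protein of caveolae, had 155, 216 and 166 CPM in sEH-/- and 141, 108 and 106 CPM in wild-type libraries. It was higher in every sEH-/- library and was called (log2 fold change 0.60, SE 0.14, edgeR adjusted p = 0.045). The call was lost without sEH-/- library 2 (0.46, adjusted p = 0.12) or wild-type libraries 2 (0.54, 0.20) or 3 (0.53, 0.19). Library totals in place of TMM factors (0.58, adjusted p = 0.037) and the covariate (0.55, 0.072) ended it too, with a range of 0.00082 to 0.20 over all alternatives. *Lrp1*, an endocytic receptor with the most counts in this list, was at 0.13 (edgeR adjusted p = 0.60), and at 0.02 to 0.26 when 1 library was left out.

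None of 11 other LXR targets, 27 other fatty acid oxidation genes and 11 other receptors and cofactors was called by edgeR, DESeq2 or limma-voom, and 2, 5 and 2 of them had an unadjusted p below 0.05. The genes with the most counts in these lists were *Scd2*, a fatty acid desaturase (log2 fold change -0.22, edgeR adjusted p = 0.30), *Acsl5*, an acyl-CoA synthetase (0.12, 0.40), and *Ncor1*, a corepressor of nuclear receptors (-0.092, 0.55). Leaving out 1 library moved *Scd2* to between -0.37, without sEH-/- library 3 (adjusted p = 0.039, over all alternatives 0.039 to 0.77), and -0.11, without sEH-/- library 2. It moved *Acsl5* to between 0.078 and 0.18 and *Ncor1* to between -0.13 and -0.02. The medians of these lists were 0.12, -0.024 and -0.076.

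The plot of alternative fits sets 5 members side by side. *Dgat2* and *Pparg* kept their direction in all 15 alternatives, *Cpt1a* did not pass the adjusted p in any of them, and *Abca1* passed it in 2.

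**Figure D5:**
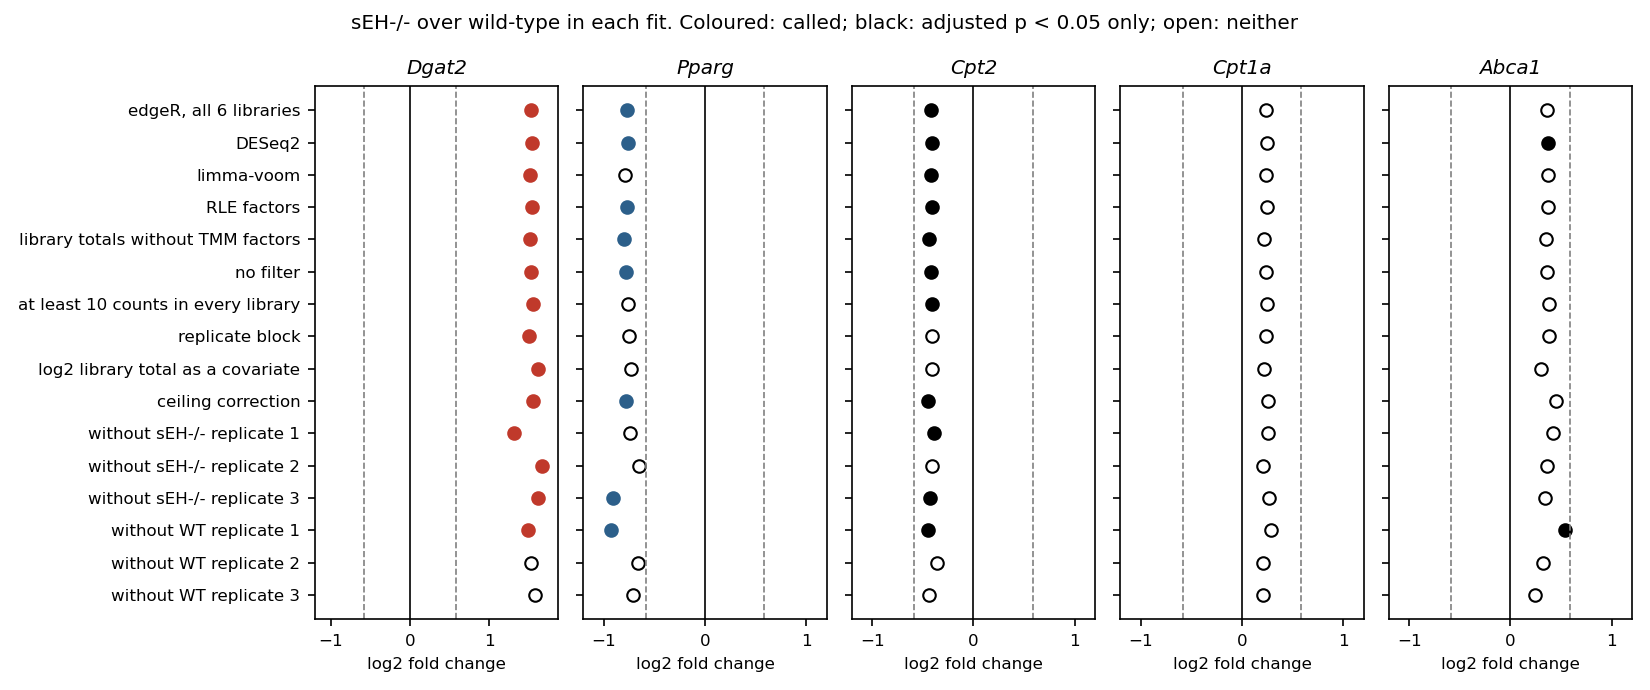
Log2 fold change (x axis) of 5 members in the edgeR fit of all libraries and in 15 alternatives (rows), with dashed lines at the 1.5-fold limits. Coloured points are called, black points passed the adjusted p alone and open points passed neither. *Dgat2* stays between 1.31 and 1.67, and *Pparg* between -0.93 and -0.65.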

How the data were processed

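The authors deposited raw counts per gene, without normalization, with 1 column per library. According to the methods, reads were trimmed with Trimmomatic, aligned with STAR to mm10, cleared of duplicates with Picard, of reads with several positions and of mitochondrial or ribosomal reads, and assigned to exons on the correct strand with featureCounts. The submitters' processing notes and the methods differ on some tool versions, and the labels and the methods differ on the library kit and on the amount of RNA. Removal of duplicates can limit the counts of short, abundant genes.

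The quasi-likelihood test of edgeR 4.0.16 was run in R 4.3.3 (TMM factors between 0.982 and 1.03, glmQLFit and glmQLFTest, no covariates). The 13785 genes with a mean of over 5 counts held 99.8% of all counts. Each SE is the absolute log2 fold change over the square root of F, and adjusted p-values are those of Benjamini and Hochberg over all tested genes. DESeq2 1.42.0 and limma 3.58.1 were alternatives. The common biological coefficient of variation was 0.0866, and the steps were tested on simulated data. Each library is labelled as a separate replicate and the study gives 3 mice per group. Between libraries of 1 genotype the chi-square per degree of freedom was 2.24 to 4.89, so that no pair was as alike as sampling noise.

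Exon lengths and positions came from GENCODE M21, which held 19286 of 19309 identifiers, and sequences from RefSeq (GRCm38.p6). Figures were drawn with matplotlib.

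The members and lists were chosen with earlier results of these data known. Values per library are given for members past the adjusted p, for the receptors, and for the member with the largest fold change and the one with the most counts in each role, and in the wider lists for called genes and the gene with the most counts. Genes outside this rule were chosen after their values were seen.

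Marker lists of other cells were neutrophil, dendritic cell, T, B and NK cell, erythroid, stromal, adipocyte and osteoclast genes. Alternatives were DESeq2, limma-voom, RLE factors, library totals, other count filters, a replicate block, the library total as a covariate, counts corrected for the ceiling of duplicate removal, leaving out each library, and no fold threshold. Some genes of the lists are not reported here.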

Additional observations from a re-analysis of the deposited data

How the results depend on the processing

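*Dgat2* was called in 13 of 15 alternatives and *Pparg* in 7, and none of the 37 uncalled members was called in any. The number of genes called, 360, was 171 with the library total as a covariate, 553 with no fold threshold, and between 6 and 625 when 1 library was left out, lowest without wild-type library 3 (6) and 2 (25). The number of members called, 2, was 1 with limma-voom, with a minimum of 10 counts in every library and with the covariate, and between 0 and 2 when 1 library was left out. Leaving out a library also leaves fewer samples, and for the other changes the cause was not tested. The median of the members stayed between -0.03 and 0.053. *Ephx2* was too low to be tested under the minimum of 10 counts in every library.

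With the replicate number as a block, 234 genes and 1 member (*Dgat2*) were called. Under it the edgeR adjusted p was 0.062 for *Pparg*, 0.065 for *Cpt2*, 0.058 for *Cav1*, 0.07 for *Dcstamp* and 0.052 for *Cd14*. None of these passed. Libraries with the same number did not deviate together (r = -0.0818, -0.26 and -0.0367), so that the numbers were not taken to pair mice.

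The sign changed in at least 1 alternative for 13 members, all at most 0.10 from 0 in log2 fold change. *Rxra* was at 0.0032 with DESeq2, 0.0033 with RLE factors and 0.0086 with the minimum of 10 counts, and *Angptl4* at 0.015 with limma-voom, 0.0033 with RLE factors and 0.0089 with that minimum. With library totals, *Lpcat3* was at -0.014, *Ech1* at -0.0066 and *Lpl* at -0.0047, and with the covariate *Ech1* was at -0.031, *Lpl* at -0.098, *Npc2* at -0.046 and *Dgat1* at 0.0055. Leaving out 1 library gave -0.035 to 0.043 for *Rxra*, -0.09 to 0.024 for *Abcg1*, -0.03 to 0.087 for *Mylip*, -0.015 to 0.033 for *Lpcat3*, -0.17 to 0.012 for *Fabp5*, -0.10 to 0.077 for *Angptl4* and -0.024 to 0.062 for *Acadm*. It gave -0.035 to 0.099 for *Ech1*, -0.13 to 0.17 for *Lpl*, -0.14 to 0.077 for *Lipa*, -0.07 to 0.01 for *Pnpla2*, -0.059 to 0.14 for *Npc2* and -0.17 to 0.033 for *Dgat1*. The cause was not tested.

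Of the tested members, *Dgat2* had the fewest counts, with 17 to 25 in the wild-type libraries, and *Pdk4* was too low to be judged.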

Other observations

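Of the wider lists, *Abca7* and *Ch25h* were not called and are given here because of their values. *Abca7*, a transporter related to *Abca1*, had 99.1, 114 and 114 CPM in sEH-/- and 80.7, 69.6 and 73.9 CPM in wild-type libraries. Every sEH-/- library was above every wild-type library, and the log2 fold change of 0.54 (SE 0.086, edgeR adjusted p = 0.017) fell short of 1.5-fold. The adjusted p was not passed without wild-type library 2 (0.49, adjusted p = 0.089) or 3 (0.54, 0.12), the fold threshold was also passed without sEH-/- library 1 (0.61) or wild-type library 1 (0.60), and the adjusted p ran from 0.00037 to 0.12 over all alternatives.

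*Ch25h*, the enzyme that makes an oxysterol ligand of LXRs, was at 1.02 (SE 0.27, edgeR adjusted p = 0.063), with all sEH-/- libraries above all wild-type libraries. It was called with DESeq2 (adjusted p = 0.03), with no count filter (0.041) and without sEH-/- library 3 (1.21, 0.034), in a range of 0.03 to 0.27.

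Of 5 tested osteoclast genes 2 were called higher, against 1.51% of all tested genes, and were picked out after their values were seen, *Mmp9* with 103, 49.8 and 41 CPM in sEH-/- and 14.9, 16.6 and 17.6 CPM in wild-type libraries, and *Dcstamp*, a fusion protein, at a log2 fold change of 0.76 (SE 0.17, edgeR adjusted p = 0.036). *Mmp9*, which was 3.99-fold higher (SE of the log2 value 0.31, edgeR adjusted p = 0.016), was not called without wild-type library 2 (adjusted p = 0.074) or 3 (log2 fold change 2.05, 0.11), in a range of 0.00037 to 0.11. *Dcstamp* was not called without sEH-/- library 2 (0.79, adjusted p = 0.094) or 3 (0.64, 0.052) or wild-type library 2 (0.71, 0.18) or 3 (0.71, 0.17), in a range of 0.0092 to 0.18. The summed level of this list was 409, 398 and 444 CPM in sEH-/- and 389, 334 and 355 CPM in wild-type libraries, and its gene with the most counts was *Acp5*, at a log2 fold change of 0.067, with *Ctsk* at -0.13. Stromal genes summed to 66.5 CPM in wild-type library 2 and to between 7.69 and 29.2 CPM in the others. *Col1a2* was the one with the most counts over all libraries. None of the 6 tested was called by edgeR, DESeq2 or limma-voom, and 1 had an unadjusted p below 0.05. Neutrophil genes summed to between 265 and 359 CPM, nearly all from *Mmp8*, while *S100a9*, *Elane*, *Camp*, *Ltf* and *Cxcr2* were below the minimum. *S100a8*, the other tested gene, had 24, 29.7 and 27.1 CPM in sEH-/- and 17.1, 18.2 and 20.1 CPM in wild-type libraries (log2 fold change 0.54, SE 0.14, edgeR adjusted p = 0.057), without overlap. It was called without sEH-/- library 1 (0.62, adjusted p = 0.036), in a range of 0.036 to 0.24. Erythroid genes summed to between 0.605 and 1.97 CPM. The part of these markers in the results was not tested.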
